A study of Mus musculus with 8 samples.

Results

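Beta-defensins and the small protease inhibitors of the reproductive tract were followed in round spermatids, the haploid germ cells that form at the end of meiosis. The members were all array probes whose platform gene symbol starts with Defb, Wfdc, Spink or Spint, or is Eppin, including its older symbol Spinlw1. They numbered 94 probes for 74 genes, out of 45281 probes for 19057 named genes on the array. A probe was kept for comparisons where 2 or more of the 8 deposited detection p-value columns were below 0.01, which left 24 probes for 20 of the genes, out of 16572 kept probes in all. The study asked how transgenic knockdown of the X-linked Slx and Slxl1 genes, or of their Y-linked relative Sly, changes the transcripts of these cells. Mice aged 8 weeks were profiled on Illumina bead arrays: 2 arrays from males with a shSLX short hairpin transgene, 2 from males with a shSLY short hairpin transgene, and 4 from wildtype males without a transgene, matched for strain and age. Cells were purified by centrifugal elutriation, which sorts them by size and density. The strain, the promoter of each transgene, the number of founder lines and any pooling of animals are not given in the sources used here.

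Beta-defensins are short, positively charged secreted peptides held together by disulphide bonds, and they can damage microbial membranes. In rodents many of them are made in the epididymis and testis, where some coat sperm. The inhibitors have compact domains of the WAP (whey acidic protein), Kunitz or Kazal type that block serine proteases, a class that includes acrosin of the sperm acrosome, and many of their genes lie in a shared stretch of mouse chromosome 2.

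The deposited data hold a conflict of names that bears on every direction given here. Values are named by the sample accessions of the authors' normalized table. The second deposited table, which is not normalized, is headed by array labels. Its columns headed wildtype 1 and 2 held the same probe ranks as the normalized table, those headed wildtype 3 and 4 had the ranks of the arrays labelled shSLY, and those headed shSLY had the ranks of the arrays labelled shSLX. The pair of columns headed shSLX matched no array of the normalized table (best Spearman correlations 0.893 and 0.916), and wildtype 3 and 4 of the normalized table had no matching column. Sly, the transcript targeted by the shSLY transgene, had log2 signals of 9.45 and 8.93 in the arrays labelled shSLX, 10.56 and 10.26 in those labelled shSLY, and 10.52, 10.36, 10.05 and 10.04 in wildtype. It fell by 0.86 ± 0.17 (SE) in the arrays labelled shSLX (adjusted p by limma = 0.0377) and was at -0.11 ± 0.21 in those labelled shSLY (adjusted p = 0.959). The transcript that shSLY targets was thus lower under the shSLX label, and the reason was not tested. Slx and Slxl1 had no named probe. Pairs of arrays correlated at 0.973 or more, between 13572 and 16113 probes were detected per column, and precision is limited by how few arrays there were. The array labels are codes, and arrays whose codes start with the same number were taken to share a slide, which gives 3 slides. Slide 3 held both arrays labelled shSLX with wildtype 3 and 4, slide 2 held both labelled shSLY with wildtype 1, and slide 1 held wildtype 2. These places go with the array labels, so they share the conflict: by the other table's headers, the arrays labelled shSLX would lie on slide 2 and those labelled shSLY on slide 3. Spermatid markers such as Prm1 and Acrv1 were kept for 14 of 16 genes, with a median change of 0.013 in the arrays labelled shSLX and -0.0088 in those labelled shSLY on the log2 scale, and none passed the limma test (4 and 0 at an unadjusted p under 0.05).

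The promoters of the 2 genes with the clearest signal changes, Defb21 and Eppin, are shown because the results turn on them, and both genes are on chromosome 2. Each sequence is RefSeq's window from 250 bases before to 50 bases after a transcript start, 5′ to 3′ on the gene's strand, in the GRCm38.p6 build. Defb21 has 2 starts, at chr2:152572493-152572792 and chr2:152573498-152573797, both on the plus strand, and the Eppin window is chr2:164593522-164593821 on the minus strand.
Defb21 start 1: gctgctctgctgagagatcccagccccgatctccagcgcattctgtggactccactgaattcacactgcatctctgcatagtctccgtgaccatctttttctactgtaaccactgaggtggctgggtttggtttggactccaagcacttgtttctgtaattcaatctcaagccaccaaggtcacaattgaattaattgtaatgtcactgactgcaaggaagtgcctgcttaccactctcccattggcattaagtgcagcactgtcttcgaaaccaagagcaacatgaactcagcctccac
Defb21 start 2: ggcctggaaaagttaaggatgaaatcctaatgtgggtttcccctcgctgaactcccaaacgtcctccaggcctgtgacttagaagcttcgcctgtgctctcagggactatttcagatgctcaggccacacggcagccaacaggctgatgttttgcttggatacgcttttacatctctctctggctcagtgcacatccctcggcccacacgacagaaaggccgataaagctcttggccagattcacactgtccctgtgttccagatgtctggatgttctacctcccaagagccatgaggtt
Eppin: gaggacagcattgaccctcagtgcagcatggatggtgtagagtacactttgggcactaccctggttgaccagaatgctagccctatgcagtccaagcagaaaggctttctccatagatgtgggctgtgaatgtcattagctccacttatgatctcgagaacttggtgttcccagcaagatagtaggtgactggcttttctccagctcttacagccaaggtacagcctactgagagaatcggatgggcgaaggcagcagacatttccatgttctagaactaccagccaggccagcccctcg
Capitals would mark a match, on either strand, to the cAMP response element TGACGTCA bound by the spermatid factor CREM, to its shorter half-site TGACG, which lies within the full element, or to the TATA-box letters TATAAA. None of these letters occurred in the 3 windows. Among 32851 promoters, 1.79% held TGACGTCA, 20.8% held TGACG and 13.6% held TATAAA. The table held 20 windows for 16 of the 20 genes with a kept probe, of which 3 held TGACG (Defb45, Wfdc6a and Wfdc6b), 2 held TATAAA (Defb30 and Wfdc17) and 0 held TGACGTCA. These counts describe letters in a window and say nothing of binding.

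Most of these genes gave little or no array signal in round spermatids. Of the 94 probes, 65 were detected in 0 of the 8 columns, 5 in 1 column, 7 in 2 to 7 columns and 17 in all 8. The rule kept 24 of 94 probes and 20 of 74 genes, against 16572 of 45281 probes and 9451 of 19057 named genes on the array. Most probes of the array were thus also not kept, and its probes were not counted by number of columns. The 70 probes that were not kept had deposited intensities between 47.8 and 93.1, close to the array median of 73.6, and 54 genes had no kept probe at all. These genes include epididymal defensins such as Defb2, Defb15 and Defb41, the inhibitors Wfdc2 and Wfdc8, and Spint2, a membrane Kunitz inhibitor. Just outside the detection rule stood Defb4, Defb15, Defb41, Spink8 and Wfdc1, each detected in 1 column with intensities between 62.4 and 93.1. Just inside it stood Defb11 and 1 probe of Wfdc6b, each detected in 2 columns with intensities of 65.8 to 92.9 and 80.5 to 91.1. By family, 10 of 50 Defb probes were kept (9 of 42 genes), 7 of 22 Wfdc probes (5 of 15 genes), 3 of 13 Spink probes (3 of 12 genes), 2 of 6 Spint probes (2 of 4 genes) and 2 of 3 Eppin probes. By chromosome, 16 of the 37 probes on chromosome 2 were kept and 3 of the 30 on chromosome 8, the chromosomes with the most member probes. Detection in the deposited columns has no entry for wildtype 3 and 4 of the normalized table, so whether a dim probe was above background in each group could not be settled.

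**Figure D1:**
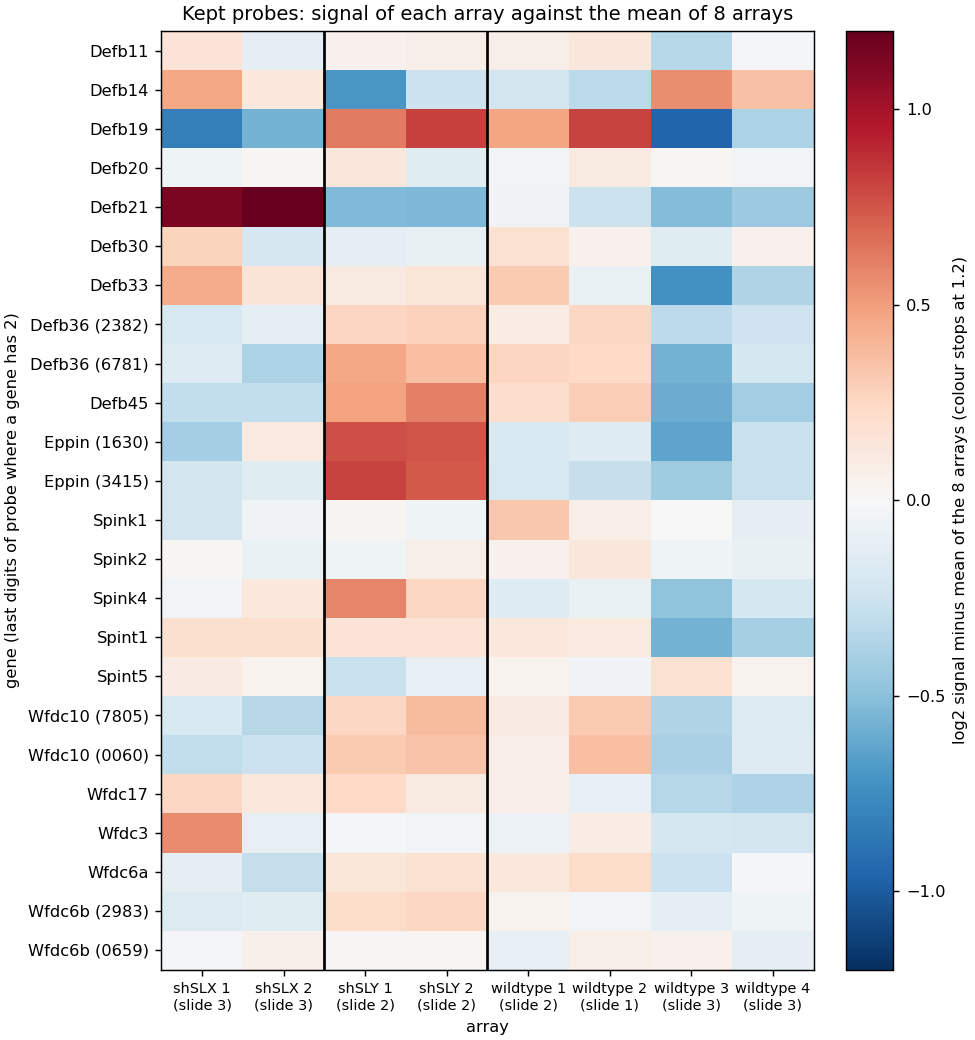
Log2 signal of each of the 24 kept probes in each of the 8 arrays, minus that probe's mean over the 8 arrays; arrays run across (with their slide), probes run down, and red is above the mean, with the colour stopping at 1.2. Defb21 stands out in both arrays labelled shSLX and both Eppin probes in both arrays labelled shSLY. Many probes are lower in the arrays that the array labels place on slide 3 than in the rest.

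Defb21, a beta-defensin gene of the chromosome 2 cluster, was higher in the arrays labelled shSLX than in any other array. Its log2 signals were 9.34 and 9.41 in the arrays labelled shSLX, 7.68 and 7.68 in those labelled shSLY, and 8.17, 7.96, 7.70 and 7.78 in wildtype. Both arrays labelled shSLX lay above all 4 wildtype arrays, and both labelled shSLY lay below all 4. On the deposited intensity scale the arrays labelled shSLX read 651 and 684, those labelled shSLY 207 and 207, and wildtype 291, 251, 210 and 222. Defb21 rose by 1.64 ± 0.098 (SE, 95% interval 1.41 to 1.86) on the log2 scale in the arrays labelled shSLX, or 3.11-fold (adjusted p by limma = 8.56e-05). Each array labelled shSLX, set against the mean of the 2 wildtype arrays of its slide, gave a difference of 1.60 and 1.67. The change in the arrays labelled shSLY was -0.49 ± 0.12 (SE, interval -0.76 to -0.22), which did not pass after adjustment (limma adjusted p = 0.149), with -0.49 in each array against wildtype 1 of the same slide. That value rests on wildtype 1: without it the change was -0.28, and without the slide term -0.22. The effect in the arrays labelled shSLX exceeded that in the arrays labelled shSLY by 2.13 ± 0.15 (SE, interval 1.77 to 2.48, limma adjusted p = 0.000722). In the non-normalized table, the columns headed shSLX read 237 and 275, those headed shSLY 615 and 498, and those headed wildtype 351, 282, 225 and 214, so there the higher pair stood under the shSLY headers. That pair of columns matches the arrays labelled shSLX, in which Sly was also lowest, at 9.45 and 8.93. Which table carries the right names was not settled by the sources used here.

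Eppin, which combines a WAP and a Kunitz domain and coats sperm, was higher in the arrays labelled shSLY. The probe ILMN_2803415 read 9.17 and 9.24 in the arrays labelled shSLX, 10.20 and 10.12 in those labelled shSLY, and 9.19, 9.11, 8.96 and 9.12 in wildtype. Both arrays labelled shSLY lay well above every other array, while those labelled shSLX overlapped wildtype. Eppin rose by 0.97 ± 0.13 (SE, interval 0.67 to 1.26) in the arrays labelled shSLY by this probe, or 1.95-fold (limma adjusted p = 0.0216). For the arrays labelled shSLX it was at 0.17 ± 0.10 (adjusted p = 0.441), and the difference of both effects was -0.80 ± 0.17 (adjusted p = 0.0548). The second probe, ILMN_1241630, read 9.18 and 9.70 in the arrays labelled shSLX, 10.36 and 10.33 in those labelled shSLY, and 9.40, 9.43, 8.95 and 9.32 in wildtype. Its groups stood in the same order, with the arrays labelled shSLY above all others. Its change of 0.94 ± 0.22 in the arrays labelled shSLY did not pass (limma adjusted p = 0.128), and it was 0.30 ± 0.18 in those labelled shSLX (adjusted p = 0.42). The third Eppin probe was detected in 0 columns, with intensities of 60.3 to 81.3. The call of the first probe rests on few arrays: without either array labelled shSLY, or without wildtype 3 or 4, its change stayed between 0.93 and 1.005 but its adjusted p was 0.0965 to 0.122. In the non-normalized table this probe read 573 and 605 under the shSLX headers, 547 and 440 under the shSLY headers, and 734, 648, 1323 and 1162 under the wildtype headers, so the higher pair there stood under wildtype 3 and 4.

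Markers of other cells were set beside these changes. In the arrays labelled shSLY, where Eppin was higher, the 4 kept Sertoli cell markers of 12 listed (Cldn11, Sox9, Rhox5 and Trf) had a median level of 6.67 to 6.80, against 6.32 to 6.35 in the arrays labelled shSLX and 6.42 to 6.66 in wildtype. None of the 4 passed the limma test (0 at an unadjusted p under 0.05 in the arrays labelled shSLY), and all 4 had changes above 0 in the arrays labelled shSLY, with a median of 0.12. In the arrays labelled shSLX, where Defb21 was higher, 3 of the 4 kept stromal and peritubular markers of 10 listed rose. Dcn rose by 1.18, Acta2 by 0.82 and Myh11 by 0.78, while Vim was at -0.16 (limma adjusted p = 0.484). The median level of the 4 was 7.07 to 7.16, against 6.33 to 6.73 in wildtype. Among the 7 kept blood and immune markers of 15 listed, 3 rose there as well (Lyz2 by 0.95, Lcn2 by 0.77 and C1qc by 0.56). Changes were above 0 in 6 of the 7, and Adgre1 was at -0.051 (limma adjusted p = 0.849). Their median levels were 6.92 to 7.34, against 6.68 to 7.41 in wildtype. Of 24 epididymis and seminal vesicle genes, 5 were kept (Ces5a, Svs4, Svs5, Svs6 and Cst11) and none passed limma's test in either comparison, with 0 at an unadjusted p under 0.05 in the arrays labelled shSLX and 2 in those labelled shSLY. Of 12 markers of earlier germ cells 8 were kept, and 1 rose in the arrays labelled shSLX (Sohlh1 by 0.73). Of the 8 Leydig cell markers only Insl3 was kept, at 7.04 and 7.64 in the arrays labelled shSLX, 8.04 and 8.26 in those labelled shSLY, and 7.31 to 7.64 in wildtype. Its changes of -0.10 ± 0.19 and 0.57 ± 0.24 (SE) did not pass (limma adjusted p = 0.811 and 0.514). The part of such cells in the changes of Defb21 and Eppin was not tested. In bulk samples, a change in the number of cells of a type and a change in RNA per cell cannot be told apart.

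**Figure D2:**
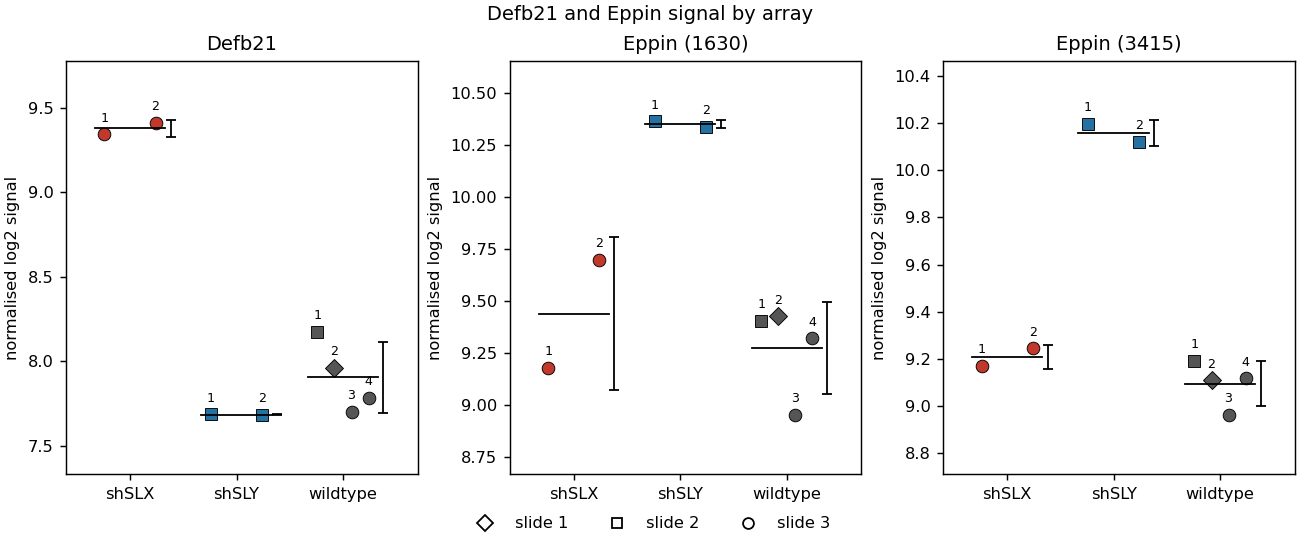
Normalised log2 signal of Defb21 and of both kept Eppin probes (last 4 digits of the probe in brackets) in the 2 arrays labelled shSLX, 2 labelled shSLY and 4 wildtype; points are arrays with their replicate number, the shape gives the slide, lines are group means and bars are ± SD. Defb21 is at 9.34 and 9.41 in the arrays labelled shSLX, above all others, and Eppin is above all others in the arrays labelled shSLY.

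The remaining defensins differed less between the groups. Defb33 read 12.81 and 12.51 in the arrays labelled shSLX, 12.47 and 12.50 in those labelled shSLY, and 12.68, 12.28, 11.63 and 12.001 in wildtype. The pairs labelled shSLX and shSLY lay within or just above the wildtype range, and wildtype 3 and 4 were its lowest arrays. With the slide in the model Defb33 rose by 0.84 ± 0.15 (SE) in the arrays labelled shSLX (adjusted p by limma = 0.0218), and without the slide term the change was 0.51 (adjusted p = 0.279). It was at -0.19 ± 0.18 in those labelled shSLY (adjusted p = 0.882). Defb45, on chromosome 2 near Defb21, read 7.01 and 7.02 in the arrays labelled shSLX, 7.80 and 7.91 in those labelled shSLY, and 7.52, 7.60, 6.72 and 6.89 in wildtype. The pair labelled shSLY lay above every wildtype array, but its change of 0.33 ± 0.13 did not pass (limma unadjusted p = 0.0335, adjusted p = 0.476), and without the slide term it was 0.67.

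Several defensins differed between the slides as the array labels place them, and these places share the conflict of names. By those labels slide 3 holds the arrays labelled shSLX with wildtype 3 and 4. Defb19, a defensin described in mouse Sertoli cells, read 8.79 and 9.04 in the arrays labelled shSLX, 10.23 and 10.43 in those labelled shSLY, and 10.08, 10.42, 8.66 and 9.23 in wildtype. Its 4 arrays on slide 3 were all below the other 4, and the changes within slides were -0.029 ± 0.18 in the arrays labelled shSLX and 0.25 ± 0.22 in those labelled shSLY (limma adjusted p = 0.951 and 0.875). Defb14, the mouse counterpart of human beta-defensin 3, ran the other way. It read 11.53 and 11.19 in the arrays labelled shSLX, 10.37 and 10.80 in those labelled shSLY, and 10.84, 10.74, 11.62 and 11.42 in wildtype, so that all 4 arrays of slide 3 were above the rest. The 2 Defb36 probes averaged 6.85 and 7.81 in the arrays labelled shSLX, 7.28 and 8.48 in those labelled shSLY, and 6.95 ± 0.27 and 8.00 ± 0.40 in wildtype (SD, n = 4). Both Defb36 probes were above every wildtype array in the pair labelled shSLY, with changes of 0.18 and 0.15 that did not pass (limma adjusted p = 0.788 and 0.914). Defb20, Defb30 and Defb11 had wildtype means of 7.16 ± 0.066, 9.67 ± 0.13 and 6.30 ± 0.21 (SD, n = 4), and their arrays overlapped wildtype in both transgene-labelled groups. Their changes lay between -0.0053 and 0.21 in the arrays labelled shSLX and between -0.29 and 0.029 in those labelled shSLY.

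Among WAP domain genes, Wfdc17 and Wfdc3 had the highest changes in the arrays labelled shSLX. Wfdc17, known in mouse as a gene of activated macrophages, read 6.63 and 6.52 in the arrays labelled shSLX, 6.63 and 6.50 in those labelled shSLY, and 6.47, 6.29, 6.04 and 6.02 in wildtype. The arrays labelled shSLX and shSLY all lay above the 4 wildtype arrays, and the wildtype arrays of slide 3 were the lowest. Wfdc17 rose by 0.55 ± 0.10 (SE) in the arrays labelled shSLX (adjusted p by limma = 0.0318) and was at 0.096 ± 0.13 in those labelled shSLY (adjusted p = 0.933). Without the slide term the change in the arrays labelled shSLX was 0.37 (adjusted p = 0.186), and its intensities, at most 101, were near background. Wfdc3 read 11.39 and 10.72 in the arrays labelled shSLX, 10.79 and 10.78 in those labelled shSLY, and 10.75, 10.91, 10.61 and 10.60 in wildtype. Only 1 of the 2 arrays labelled shSLX stood above wildtype, and the change of 0.45 ± 0.19 did not pass (limma unadjusted p = 0.0408, adjusted p = 0.267). Without the first array labelled shSLX it was 0.11, and without the second 0.78.

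The remaining WAP genes lie next to Eppin in the chromosome 2 gene order, which runs Wfdc2, Spint3, Wfdc6a, Eppin, Wfdc8, Wfdc6b, Wfdc16, Wfdc9, Wfdc10, Wfdc11, Wfdc13, Spint4, Spint5 and Wfdc3. None of its neighbours with a kept probe passed in the arrays labelled shSLY. Wfdc6a, next to Eppin, averaged 6.65 ± 0.12 in the arrays labelled shSLX, 7.01 ± 0.027 in those labelled shSLY (SD, n = 2 each) and 6.86 ± 0.21 in wildtype (SD, n = 4), with a change of 0.035 ± 0.14 (SE) in the arrays labelled shSLY (adjusted p by limma = 0.989). The Wfdc6b probe ILMN_3062983 averaged 6.29 in the arrays labelled shSLX, 6.68 in those labelled shSLY and 6.40 in wildtype, and ILMN_3140659 averaged 6.43, 6.43 and 6.39 in the same groups. The first of these was below every wildtype array in the pair labelled shSLX and above every one in the pair labelled shSLY, with changes of -0.065 and 0.20 (limma adjusted p = 0.759 and 0.746). The 2 Wfdc10 probes averaged 6.87 and 6.29 in the arrays labelled shSLX, 7.45 and 6.89 in those labelled shSLY, and 7.10 ± 0.30 and 6.53 ± 0.32 in wildtype (SD, n = 4). Their changes of 0.22 ± 0.14 and 0.25 ± 0.14 (SE) in the arrays labelled shSLY did not pass (limma adjusted p = 0.788 and 0.686). Around Defb21 the gene order was Defb23, Defb20, Defb22, Defb26, Defb28, Defb29, Defb21, Defb19, Defb45, Defb36 and Defb25, and of the neighbours with a kept probe (Defb20, Defb19, Defb45 and Defb36) none passed in either comparison.

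Among Kunitz genes, Spint1 encodes HAI-1, a membrane inhibitor of matriptase and of the hepatocyte growth factor activator. Spint1 read 7.40 and 7.40 in the arrays labelled shSLX, 7.37 and 7.37 in those labelled shSLY, and 7.33, 7.33, 6.64 and 6.81 in wildtype. The pairs labelled shSLX and shSLY and wildtype 1 and 2 were nearly level, and only wildtype 3 and 4 stood below. It rose by 0.67 ± 0.10 (SE) in the arrays labelled shSLX by the model with slide (limma adjusted p = 0.0117), and by 0.37 without the slide term (adjusted p = 0.329). It was at 0.042 ± 0.13 in those labelled shSLY (limma adjusted p = 0.981). The other Spint1 probe was detected in 0 columns, with intensities of 66.7 to 82.9, and was not tested. Spint5 averaged 8.38 ± 0.041 in the arrays labelled shSLX, 8.13 ± 0.12 in those labelled shSLY (SD, n = 2 each) and 8.37 ± 0.094 in wildtype (SD, n = 4). The pair labelled shSLY lay below every wildtype array, with a change of -0.23 ± 0.13 (SE, limma adjusted p = 0.737).

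Among Kazal genes, Spink2, an acrosin inhibitor that spermatids need to form a sound acrosome, overlapped between all groups. Its signals were 13.87 and 13.78 in the arrays labelled shSLX, 13.80 and 13.93 in those labelled shSLY, and 13.91, 13.99, 13.81 and 13.77 in wildtype. The changes were 0.036 (interval -0.20 to 0.27) in the arrays labelled shSLX and -0.047 (interval -0.33 to 0.24) in those labelled shSLY. Spink4, known as a gene of intestinal goblet cells, read 6.84 and 7.002 in the arrays labelled shSLX, 7.46 and 7.12 in those labelled shSLY, and 6.71, 6.79, 6.39 and 6.66 in wildtype. The pairs labelled shSLX and shSLY lay above all wildtype arrays, but its changes of 0.40 ± 0.15 and 0.58 ± 0.18 (SE) did not pass (limma adjusted p = 0.218 in the arrays labelled shSLX and 0.284 in those labelled shSLY). Spink1, the pancreatic trypsin inhibitor, read 6.16 and 6.34 in the arrays labelled shSLX, 6.41 and 6.33 in those labelled shSLY, and 6.69, 6.46, 6.37 and 6.26 in wildtype. These overlapped, and its change of -0.33 ± 0.13 in the arrays labelled shSLY did not pass (limma unadjusted p = 0.0384, adjusted p = 0.508). Without wildtype 1 it was -0.089.

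**Figure D3:**
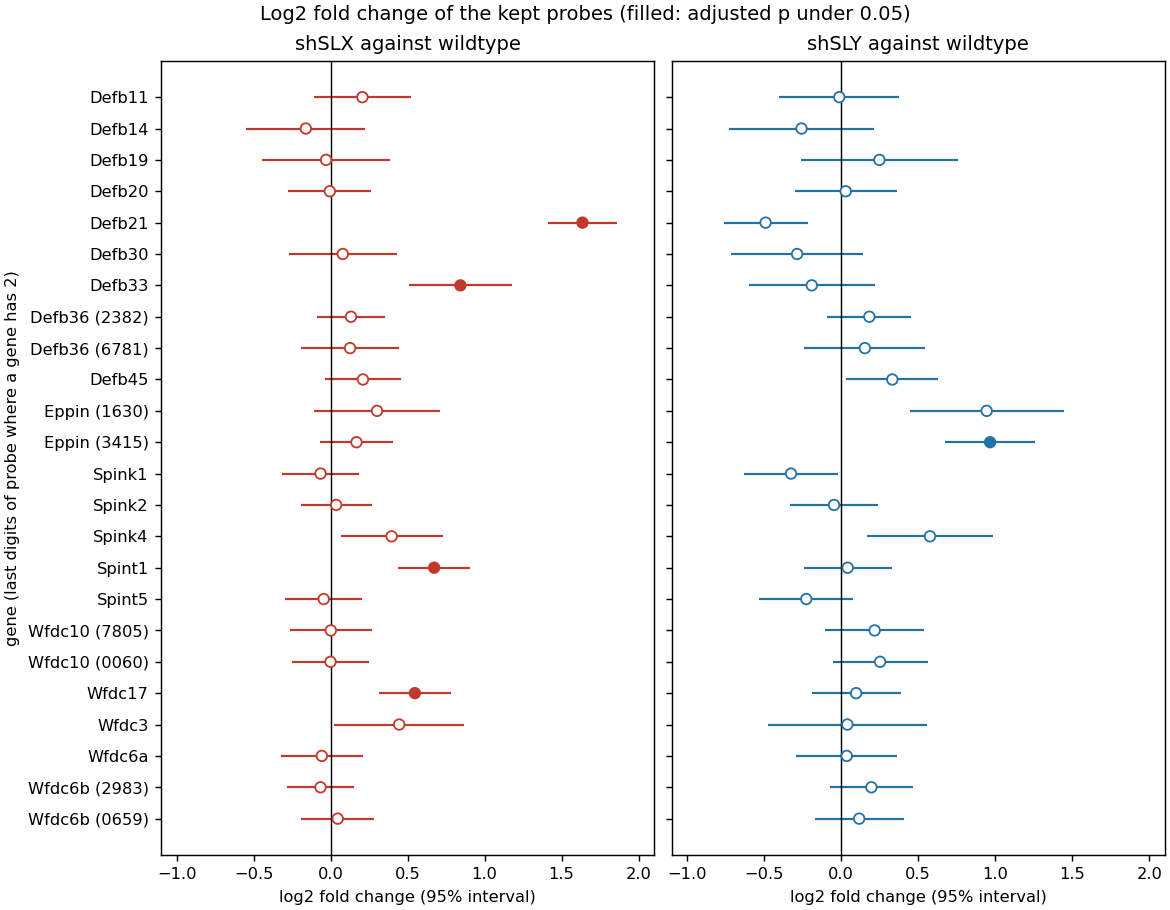
Log2 fold change of each kept probe with its 95% interval, against wildtype with slide in the model, in the arrays labelled shSLX (left panel) and shSLY (right panel); filled points have a limma adjusted p under 0.05. In the left panel 4 probes are filled, with Defb21 at 1.64, and 1 in the right panel, the Eppin probe at 0.97.

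Counted over the kept probes, 4 of 24 (16.7%) passed in the arrays labelled shSLX, all higher (Defb21, Defb33, Spint1 and Wfdc17), where 2.41% of all 16572 kept probes passed. The median change of the 24 was 0.10, against -0.018 over all kept probes, and 16 of the 24 were above 0. Without the slide term 1 of 24 passed, Defb21, where 2.38% of all kept probes passed. On slide 3 alone 2 passed, Defb21 and Spint1, where 1.51% of all kept probes passed. In the arrays labelled shSLY, 1 of 24 (4.17%) passed, the Eppin probe, where 0.712% of all kept probes did, and the median change was 0.069 against -0.013. Without wildtype 3 or without wildtype 4, 0 of 24 passed there in limma, with 5 at an unadjusted p under 0.05. Of all kept probes 0.0302% passed in each of these runs. Without either array labelled shSLX the changes there of Eppin probe ILMN_1241630 and of Defb21 stayed at 0.94 and -0.49. For the difference of the 2 effects 1 of 24 passed, Defb21, where 1.80% of all kept probes did. Without wildtype 1 this count was 2, where 1.59% of all kept probes passed. The difference for Eppin probe ILMN_1241630 was -0.38 without the first array labelled shSLX and -0.90 without the second. By plain separation of arrays, 5 of 24 (20.8%) did not overlap wildtype in the arrays labelled shSLX, where 25.0% of all kept probes did not. The share was 11 of 24 (45.8%) in the arrays labelled shSLY, where 35.6% of all kept probes did not. Both separation shares were near the background, so they give no result about these genes. The separation counts share all wildtype arrays. With slide in the model, the comparisons of the 2 labelled groups with wildtype rest on different wildtype arrays but share the estimate of spread.

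The wildtype arrays themselves differed in these genes. Wildtype 3 and 4 were both below wildtype 1 and 2 in 18 of the 24 probes (75%), against 34.1% of all kept probes, and both above in 2 of 24 (8.33%), against 29.7%. The median of wildtype 3 and 4 minus wildtype 1 and 2 was -0.28 for the members and -0.017 for all kept probes. In 8 of 24 probes (33.3%), all 4 arrays placed on slide 3 by the array labels were below the other 4, against 14.6% of all kept probes. These probes were from Defb19, Defb36, Defb45, Wfdc6a, Wfdc6b and Wfdc10. In 1 probe, Defb14, all 4 were above, against 13.4% of all kept probes. Against wildtype 1 and 2 alone, an alternative chosen after seeing the data, 7 of 24 probes passed in the arrays labelled shSLX, where 12.6% of all kept probes did. Defb21 was again higher, and Defb19, Defb36, Defb45, Wfdc6a and both Wfdc10 probes were lower. For Defb33, Spint1 and Wfdc17 the call in the arrays labelled shSLX depends on wildtype 3 and 4. These have no matching column in the non-normalized table. Without wildtype 3 or without wildtype 4, 1 of 24 probes passed, Defb21, at 1.60 or 1.68. Calls were lost across the array, as 0.308% and 0.259% of all kept probes passed, against 2.41% with all arrays. The changes were 0.66 and 1.03 for Defb33, 0.59 and 0.76 for Spint1, and 0.56 and 0.54 for Wfdc17.

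**Figure D4:**
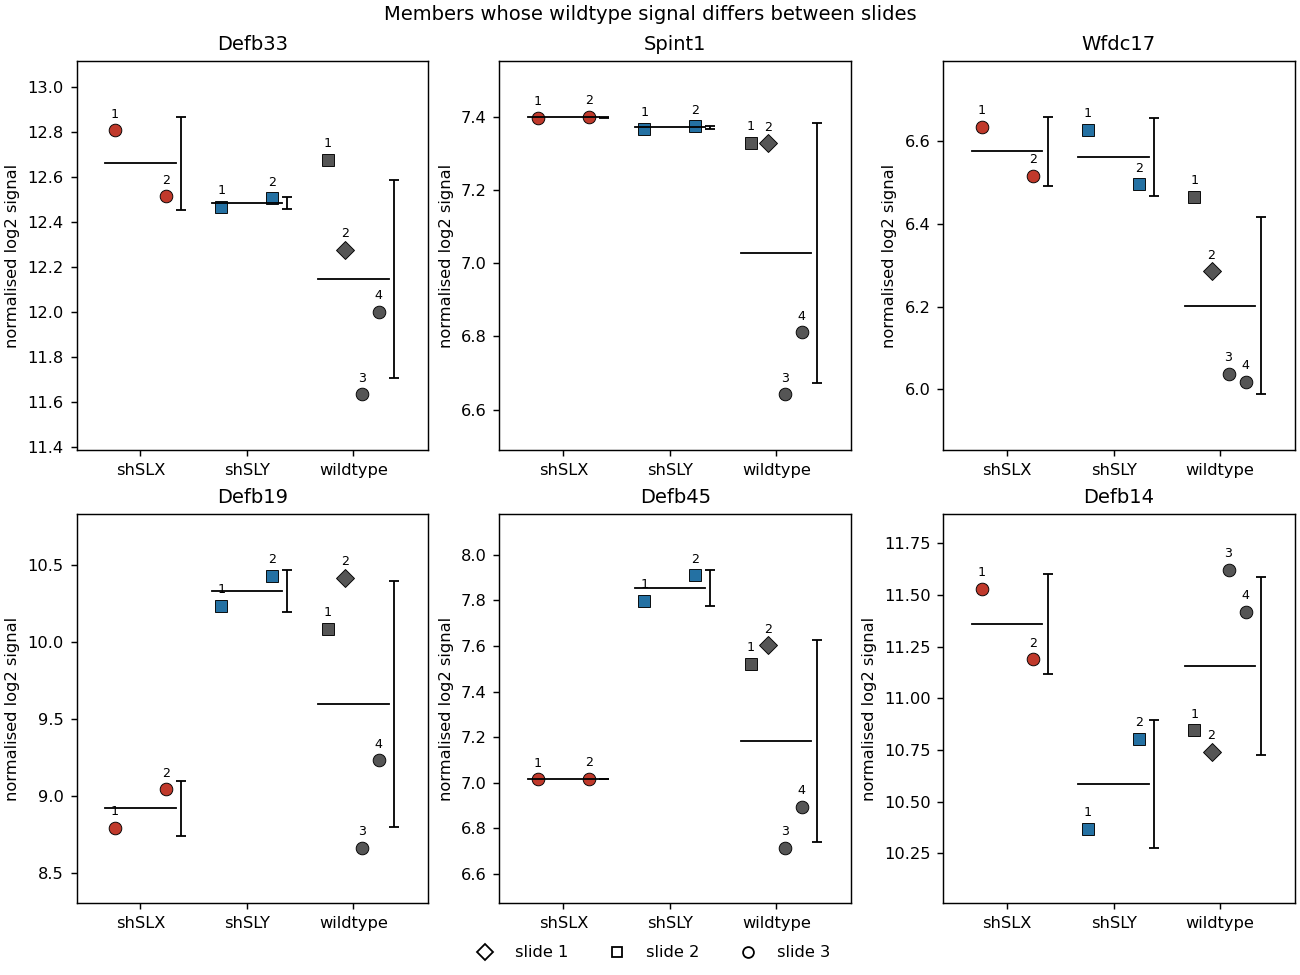
Normalised log2 signal of Defb33, Spint1, Wfdc17, Defb19, Defb45 and Defb14 in the 2 arrays labelled shSLX, 2 labelled shSLY and 4 wildtype; points are arrays with their replicate number, the shape gives the slide, lines are group means and bars are ± SD. Wildtype 3 and 4, on slide 3 by the array labels, are the lowest wildtype arrays in every panel but that of Defb14. There they are the highest.

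Genes with related functions were followed beside the inhibitors. Of 27 listed sperm and serine proteases, 18 were kept and 5 rose in the arrays labelled shSLX (Klk1b26 by 2.25, Klk1b5 by 2.02, Klk1 by 1.85, with Klk1b27 and Hgfac, the protease that Spint1 inhibits, at 0.94), none fell, and the median change was 0.022. Acr, which encodes the acrosin that Spink2 inhibits, did not pass. Only Klk1b5 rose in those labelled shSLY, by 0.82, and the median was 0.037. The tissue kallikreins of the Klk1 family are close relatives, so their probes may share signal. Of 32 other protease inhibitors, 14 were kept and 4 rose in the arrays labelled shSLX, with Stfa1, a cysteine protease inhibitor, at 2.16, Serpina1b, an elastase inhibitor, at 1.45 and Cst3, cystatin C, at 0.95. By limma 0 passed in those labelled shSLY, with 1 at an unadjusted p under 0.05. Of 17 other antimicrobial genes, 7 were kept and 5 rose in the arrays labelled shSLX, with the chitinase-like Chil4 at 1.87 and Chil3 at 1.82, and lysozyme Lyz1 at 1.24. Again 0 passed by limma in those labelled shSLY, with 3 at an unadjusted p under 0.05. Over all 9451 genes with a kept probe the medians were -0.0085 and -0.012 in the arrays labelled shSLX and shSLY. The 5 named genes whose signal across the 8 arrays was most like that of Defb21 were Tmod4 (Pearson r = 0.995), Chil3 (0.992), Hoxc9 (0.992), Tg (0.991) and Strn (0.989), a description of 8 arrays that share the same pair of high arrays.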

How the data were processed

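Total RNA of elutriated round spermatids was measured on 8 bead arrays, grouped by the transgene given in the labels. The labels do not say that the arrays came from separate animals, so p-values reflect only how these samples vary, and that variation may be technical. The authors' normalized table holds linear intensity per probe, and a second deposited table holds non-normalized intensity with a detection p-value per array, per the file headers. The submitters' processing notes list BeadStudio and GenomeStudio, giving no version or role. The background treatment and normalization the authors applied are not given in the sources used here.

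The normalized table was background-corrected with normexp (offset 50), quantile-normalized and converted to log2 in limma 3.58.1 (R 4.3.3). The deposited intensity was already normalized, and this second pass altered the changes of these probes little. In the arrays labelled shSLX, Wfdc17 was at 0.547 with it and 0.536 on log2 of the deposited values, and Spint1 at 0.672 and 0.664. Group and slide were fitted over all 8 arrays and 16572 kept probes with lmFit and eBayes (3 residual and 5.69 prior degrees of freedom). Adjusted p-values are Benjamini-Hochberg over all kept probes, with a threshold of 0.05. With slide in the model, the arrays labelled shSLX are in effect set against wildtype 3 and 4, and those labelled shSLY against wildtype 1. The fit was checked on simulated data. All 94 member probes matched the GRCm38.p6 gene table.

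Members, gene lists and tests were chosen with earlier results of these data known. Values are given for Defb21 and Eppin, for members past the threshold or with an unadjusted p under 0.05, and in brief for every gene with a kept probe. For context lists, 1 probe per gene was used and up to 3 members past the threshold were named with values, apart from markers of other cells and Hgfac, named for its tie to Spint1. Alternatives covered the slide term, background correction, filter, table, replicate number and each array left out. Deviations of same-numbered arrays from their group means correlated at -0.084 to 0.216 between groups. In each transgene-labelled pair the deviations are mirror images of each other, so this check cannot exclude pairing. Replicate numbers were not taken as pairs in the main model.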

Additional observations from a re-analysis of the deposited data

Results flagged for a closer look

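Defb21 changed differently in the arrays labelled shSLX and those labelled shSLY: the difference of both effects was 2.13 on the log2 scale, by a limma contrast within the same model. With the non-normalized table under its own headers this difference was -0.72.

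The 2 columns headed shSLX in the non-normalized table match no array of the normalized table and entered only the alternative run on the non-normalized table. For Defb14 the lower of these, at 11.51 after neqc (limma's normalization for bead arrays), exceeded the highest of the other 6 columns by 0.00761 on the log2 scale.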

How the results depend on the processing

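Across 299 alternative values of single members, 234 kept direction and side of the threshold, 30 lost and 25 gained the call, and 10 changed direction. Defb21 in the arrays labelled shSLX passed under every alternative run on the normalized table (lowest 1.31, with a replicate block or against wildtype 1 and 2 only). The non-normalized table's shSLX headers stand over other arrays, so its 0.52 bears on those and not on the arrays labelled shSLX. The number passing in the arrays labelled shSLX (4) was 1 with no slide term or with slide as a random block. On slide 3 alone it was 2. Of all kept probes 2.38%, 3.03% and 1.51% passed in these runs. With the non-normalized table's headers it was 10 (2 higher, 8 lower), where 18.8% of all kept probes passed. With each array left out it was 1 to 5. The counts of 1 came without wildtype 3 or 4, where 0.308% and 0.259% of all kept probes passed. The 5 came without the second array labelled shSLX, a run that leaves 1 array in that group. Many more of all kept probes passed there than with all arrays, so this range gives no result about these genes. In the arrays labelled shSLY (1) the count was 3 with no slide term or with a random block. Of all kept probes 3.83% and 2.83% passed in these runs. A normexp offset of 16 gave 0 (limma, with 6 at an unadjusted p under 0.05), where 0.103% of all kept probes passed. With each wildtype array left out it was 0 or 1, where 0.0302% to 1.18% of all kept probes passed. For the difference (1) it was 4 with no slide term, 2 with a random block and 2 of 94 with no filter. Of all probes tested 14.8%, 6.29% and 0.780% passed in these runs. With the non-normalized table's headers it was 0 (limma, with 6 at an unadjusted p under 0.05), where 0.380% of all kept probes passed. With each wildtype array left out it was 1 or 2, where 0.0784% to 1.80% of all kept probes passed. Against wildtype 1 and 2 only, a choice made after seeing the data, the counts were 7, 2 and 12, where 12.6%, 2.01% and 27.1% of all kept probes passed. With a replicate block and no slide term, 6 probes passed in the arrays labelled shSLX, 2 in those labelled shSLY and 12 for the difference, where 12.7%, 2.02% and 26.4% of all kept probes passed. All 10 changes of direction came from the non-normalized table, whose headers give other names to 4 arrays and whose shSLX columns hold arrays absent from the normalized table. They were, for its shSLX headers, Wfdc3 -0.14, Spint1 -0.30, Eppin -0.64 and -0.73, Spink4 -0.86, Wfdc17 -0.45 and Defb33 -0.21. For its shSLY headers they were Defb21 1.24 and Defb45 -0.56, and for the difference Defb21 -0.72. The cause of the other shifts was not tested. Without wildtype 1, slide 2 holds no wildtype array and its term drops out. Dim probes near background limit Defb11, Wfdc6b, Spink1 and Wfdc17.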
